A study of Mus musculus with 13 samples.

Results

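The RNA that the Z22 antibody pulled down after ADAR1i-124 was compared with the RNA that it pulled down after DMSO, using 1 library of each, or 2 of the 13 libraries of the series. The libraries were chosen by their labels and not by a measured value. Of 54532 genes in the count table, 12799 averaged 1 CPM or more over this pair, CPM being a gene's counts per 1e6 counts of its library, and were compared, and 7961 had a mean of at least 10 CPM. The cells were YUMM1.7, a mouse cutaneous melanoma line labelled as wild type, and they had received DMSO or 10 µM ADAR1i-124, a small-molecule inhibitor of the editing enzyme ADAR1, for 12 h. Before the antibody was added, DNase and RNase I, an enzyme of single-stranded RNA, had acted on the purified RNA. Z22 was raised against left-handed nucleic acid and is used to enrich Z-RNA. The series also holds total RNA, RNA precipitated with J2, an antibody to double-stranded RNA, and an IgG control whose treatment the labels do not give. It further holds cells given 5-AZA-CdR, an inhibitor of DNA methylation, at 1 µM for 72 h with or without ADAR1i-124. Each condition is 1 library of 1 cell line, so no difference has a replicate check and no test was made. A comparison of these libraries cannot be told apart from a comparison of the treatments.

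Double-stranded RNA usually takes the right-handed A form, and alternating purine and pyrimidine bases can turn into the left-handed Z form. ADAR1 changes adenosine to inosine in double-stranded RNA, and its long isoform, p150, carries a domain that binds Z-RNA. ZBP1 carries domains of the same kind and links Z-RNA to necroptosis and apoptosis, while MDA5 (Ifih1) and PKR (Eif2ak2) sense A-form duplexes and lead to interferon genes and a block of translation.

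The Z22 library of DMSO stood apart from the other precipitations. Its counts summed to 8727552 and those of Z22 with ADAR1i-124 to 14663357, so that 3 counts, the smallest number taken as detected, equal 0.344 and 0.205 CPM. A single gene, Gm42418, took 34.9% of its counts (95% Wilson interval 34.8% to 34.9%), against 14.6% in Z22 with ADAR1i-124, 14.2% in IgG, 10.6% and 15.8% in the other Z22 libraries and 15.8% to 18.9% in the J2 libraries. The library of Z22 with ADAR1i-124 lay close to IgG: 90.7% of 12922 genes were within 2-fold of the shift between them, 0.549% of genes were at least 4-fold above that shift and 0.0232% at least 4-fold below it. Between Z22 with DMSO and IgG, 50.9% of 12558 genes were within 2-fold, 9.18% were at least 4-fold above and 6.26% at least 4-fold below. In the remaining Z22 pair, the combination over 5-AZA-CdR, these shares were 91.8%, 0.466% and 0.724%. Over IgG, Z22 with 5-AZA-CdR had 74.5% and Z22 with the combination 72.2% of genes within 2-fold, between the shares of the ADAR1i-124 and DMSO libraries. Every value below of Z22 with ADAR1i-124 over Z22 with DMSO rests on this DMSO library, and the IgG level is given beside only part of them. Melanocyte markers were nearly absent: of 8, only Mitf reached 1 CPM, with 96 and 142 counts, and Sox10, Tyr, Dct, Tyrp1, Pmel, Mlana and Mc1r had at most 4 counts in either library. Leukocyte markers summed to 15.4 and 13.1 CPM, almost all of it Cd68, endothelial markers to 7.33 and 4.36, epithelial markers to 0 and 0.273, and fibroblast markers to 79.2 and 14.7, most of the former being Col1a1.

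**Figure D1:**
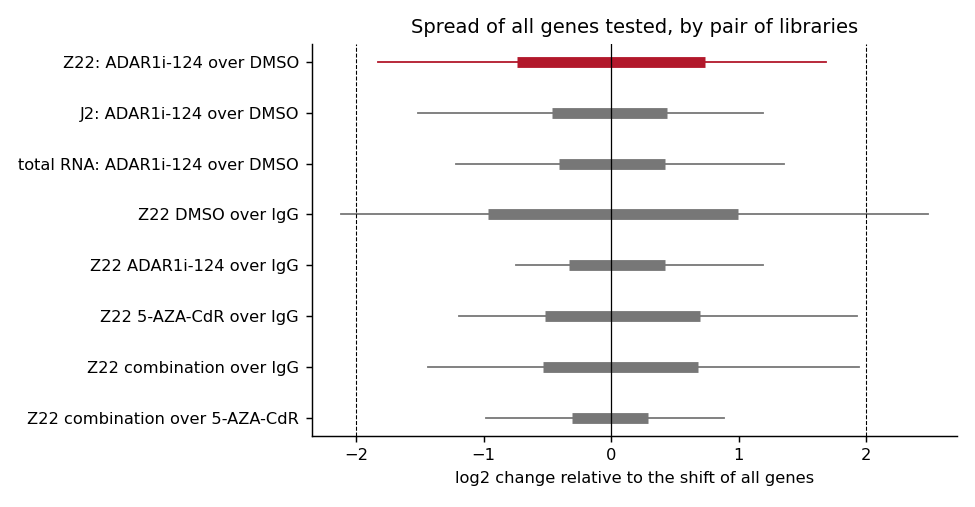
Spread of the log2 change of all genes tested around the median of each pair of libraries (x axis), for 8 pairs (y axis). Thick bars hold the middle 50% of genes, thin lines the middle 90%, and dashed lines mark 4-fold. The middle 50% ran from −0.73 to 0.73 in the Z22 pair of ADAR1i-124 and DMSO (red), from −0.47 to 0.43 in the J2 pair and from −0.41 to 0.42 in total RNA.

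The median gene had 0.81 more log2 CPM with ADAR1i-124 than with DMSO (95% binomial interval of the median 0.79 to 0.84). The share of Gm42418 moved with this shift, which was 0.33 when the 20 genes of highest mean share were left out of the totals. Each gene was read relative to this shift, and rose or fell means here at least 4-fold above or below it. By this line 309 genes rose, 2.41% of those tested, and 487 fell, 3.8%. Among genes of at least 10 CPM, 218 rose and 259 fell. At a 2-fold line 2250 rose and 2239 fell. Intervals of single genes below are exact binomial 95% intervals of the ADAR1i-124 library's part in a gene's reads. They cover counting error only, because PCR copies were not marked by identifiers and reads need not be separate molecules. They lie wholly past the 4-fold line for 142 of the genes that rose and for 305 of those that fell. Relative changes contain a pseudocount of 0.5 CPM, by which genes of low level appear less changed, and the intervals do not, so that for low counts a value can lie near or past an end of its interval.

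**Figure D2:**
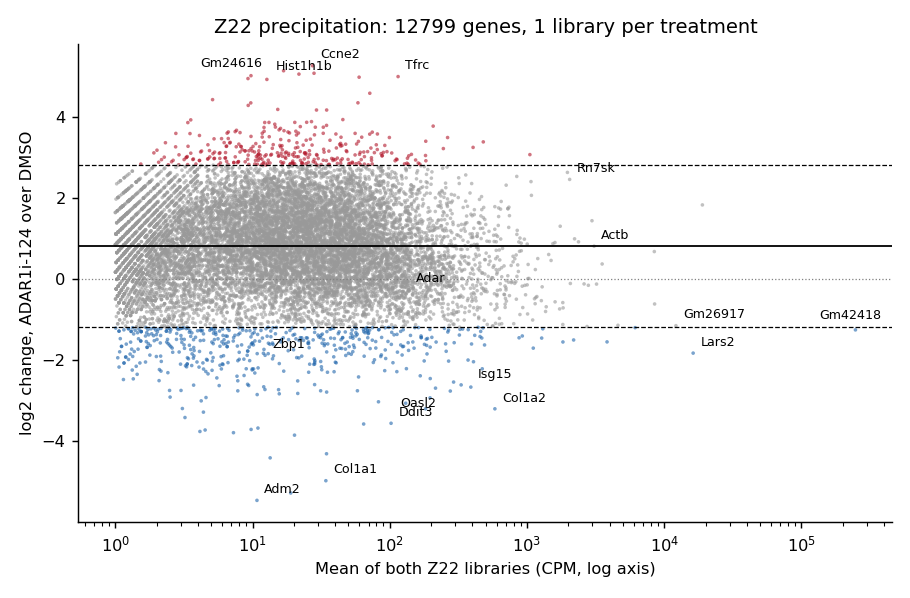
Each of 12799 genes by its mean level over both Z22 libraries (x axis, CPM, log axis) and its log2 change, ADAR1i-124 over DMSO (y axis). The solid line is the shift of all genes at 0.81, the dashed lines are 4-fold above and below it, the 309 genes that rose are red and the 487 that fell blue, and Gm42418 lies at the far right.

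The genes that rose most had almost no reads in the DMSO precipitate and levels near those of IgG in the ADAR1i-124 precipitate. Ccne2, which encodes cyclin E2 of the G1/S transition (GRCm38 chr4:11191351-11204779), had 8 counts with DMSO (0.917 CPM) and 789 with ADAR1i-124 (53.8 CPM), a relative log2 change of 4.45 (4.08 to 6.28). Its level was 74.7 CPM in IgG and 35.5 and 11.7 CPM in Z22 with 5-AZA-CdR and with the combination. Tfrc, the transferrin receptor that takes up iron (chr16:32608920-32632794), had 57 counts (6.53 CPM) and 3276 counts (223 CPM), a relative change of 4.18 (3.91 to 4.69), beside 246 CPM in IgG. In each of these genes the DMSO library was the low one among all Z22 and IgG libraries. Mmp10, a secreted matrix metalloprotease, went from 7 to 627 counts (relative change 4.24) and Cdc7, the kinase that fires replication origins, from 10 to 431 (3.37). Prl2c3, a prolactin-family hormone, went from 10 to 806 counts (4.26). Its near copy Prl2c2 went from 1 to 270 (4.13), and reads shared between such copies make both values uncertain. The linker histone genes Hist1h1b (28 to 1706 counts, 4.17) and Hist1h1d (46 to 2020 counts, 3.77) and the core histone gene Hist1h2bb (23 to 819 counts, 3.36) were among the 10 protein-coding genes of at least 10 CPM that rose most. So were Usmg5, a small subunit of the mitochondrial ATP synthase (44 to 1645 counts, 3.54), and Cox7a2, a subunit of cytochrome c oxidase (28 to 970 counts, 3.36). None of these genes rose in total RNA except Prl2c3 and Prl2c2, at 2.68 and 4.34 relative to the shift there.

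The genes that fell most were the reverse: in CPM they were higher in the DMSO precipitate than after ADAR1i-124 and in IgG, where the 10 lay between 0.326 and 41.3 CPM. Adm2, a peptide hormone of the calcitonin family (chr15:89322720-89324731), had 188 counts with DMSO (21.5 CPM) and 0 with ADAR1i-124, which by the limit of 3 counts was at least 105-fold lower in CPM. Sh2d6, an adaptor protein with an SH2 domain (chr6:72513641-72521707), had 327 counts (37.5 CPM) and 7 counts (0.477 CPM), a relative change of −6.09. IgG held 0.522 CPM of Adm2 and 0.326 CPM of Sh2d6. Col1a1, the α1 chain of type I collagen (chr11:94936224-94953042), had 583 counts (66.8 CPM) and 24 counts (1.64 CPM), a relative change of −5.79 (−6.82 to −5.57). Angptl6, a secreted angiopoietin-like protein, fell from 228 to 11 counts (−5.22), Cdsn, an adhesion protein of cornified epithelium, from 579 to 42 (−5.12), and Soat2, which esterifies cholesterol, from 334 to 32 (−4.66). Trim46, an organizer of axonal microtubules, fell from 181 to 17 counts (−4.49), and the kinesin Kif21b from 1043 to 140 (−4.39). Ddit3 (CHOP), a transcription factor of the integrated stress response (chr10:127290774-127296288), fell from 1648 counts (189 CPM) to 228 counts (15.5 CPM), a relative change of −4.37 (−4.62 to −4.21), and the stress protein Nupr1 from 2875 to 518 counts (−4.01). Of these 10 genes only Kif21b also fell in total RNA (−4.04). The other 9 lay between −0.01 and 1.08 relative to the shift in total RNA. In the J2 pair 9 of the 10 fell too, from −4.51 for Sh2d6 to −2.25 for Trim46, and Nupr1 was at −1.36.

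**Figure D3:**
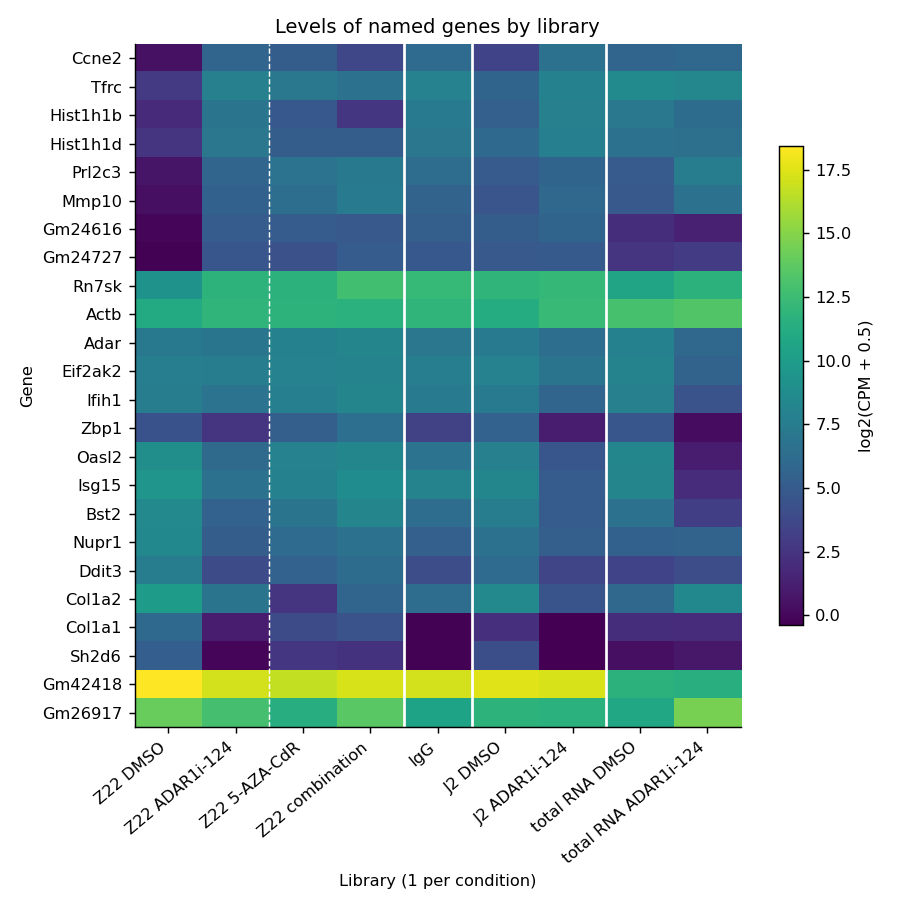
Levels of 24 named genes (rows) in 9 libraries (columns) as log2(CPM + 0.5), with brighter colours for higher levels. Ccne2, Tfrc, the histone genes and the small nucleolar RNAs Gm24616 and Gm24727 are darkest in the Z22 DMSO column, while Ddit3, Nupr1, Col1a2 and Sh2d6 are brightest there.

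Interferon-stimulated genes (ISGs) were lower in the ADAR1i-124 precipitate. Of 42 listed ISGs 40 were tested, 15 fell and none rose, with a median relative change of −1.48, against a median of 0 and 3.8% fallen over all genes tested. Isg15, a ubiquitin-like protein (chr4:156199424-156200818), had 5880 counts with DMSO (674 CPM) and 1549 with ADAR1i-124 (106 CPM), a relative change of −3.48 (−3.57 to −3.40), and stood at 265 CPM in IgG. Bst2 (tetherin), which holds budding virus at the membrane, went from 348 to 45.1 CPM (−3.74). Gbp3, a guanylate-binding protein, went from 280.4 to 53.1 CPM (−3.20), and Stat2, a transcription factor of interferon signaling, from 286 to 70.1 CPM (−2.83). In these genes IgG lay between the Z22 libraries, at 80.5, 85.2 and 95.8 CPM. In total RNA the median over the 40 genes was −3.95 and 36 fell, where 1.86% of all genes fell and 2.16% rose. The change in Z22 was above that in total RNA in 38 of the 40. In the J2 pair 22 of the 40 fell, with a median of −2.22, where 2.71% of all genes fell and 0.821% rose. Isg15 stood at 287 CPM with DMSO and 3.58 CPM with ADAR1i-124 in total RNA, and the latter lies below the 106 CPM of the Z22 library of the same treatment.

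Sensors of double-stranded RNA were also lower. Of 15 tested, 7 fell, against 3.8% of all genes, none rose, and the median was −1.74. The 7 were Oasl2, Oas1a, Oas1b, Oas1g, Oas2 and Oas3, of the family that makes or resembles makers of 2′-5′ oligoadenylate, and Dhx58 (LGP2), a regulator of MDA5. Oasl2 had 4205 counts with DMSO (482 CPM) and 1033 with ADAR1i-124 (70.4 CPM), a relative change of −3.58 (−3.68 to −3.49). Oas3 went from 149 to 37.9 CPM (−2.77). The sensor kinase Eif2ak2 went from 1803 to 2820 counts, at −0.91 relative to the shift, Ifih1 from 1724 to 1622 counts (−1.64) and Ddx58 (RIG-I) from 1171 to 2085 counts (−0.73), and these did not pass the line. Near copies within the Oas family share sequence, so the values of single members are uncertain. All 15 had a smaller fall or a higher value in Z22 than in total RNA, where 13 fell, against 1.86% of all genes.

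The RNAs of proteins that bind Z-RNA were also measured. Zbp1 (chr2:173206612-173218923) had 172 counts with DMSO (19.7 CPM) and 73 with ADAR1i-124 (4.98 CPM), a relative change of −2.69 (−3.21 to −2.39), beside 9.27 CPM in IgG. It went from 25.1 to 0.681 CPM in total RNA and from 45.2 to 1.60 CPM in J2. Among its partners in cell death, Mlkl, which opens the membrane in necroptosis, was at −0.69, Ripk1 at −0.26, Casp8 at −0.41 and Cflar at 0.22, and Ripk3 had 1 and 0 counts. Adar itself (chr3:89715022-89753446) had 1302 counts with DMSO (149 CPM) and 1827 with ADAR1i-124 (125 CPM), a relative change of −1.07 (−1.17 to −0.97), and IgG held 133 CPM. Adarb1 (ADAR2) was at 1.43 from 15 and 146 counts. None of 14 tested genes of proteins with double-stranded RNA-binding domains or like roles passed the line, where 2.41% of all genes rose and 3.8% fell. Their median was 0.32, or 0.03 against genes of like GC content. The helicase Dhx9, which unwinds such duplexes, stood at 1.16, Prkra, an activator of PKR, at 1.18 and Zfr at −0.80.

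Immediate early genes, which cells switch on within minutes of a stimulus, were lower in the ADAR1i-124 precipitate and higher in total RNA. Of 21 tested, 8 fell and none rose, with a median of −1.39, where 3.8% of all genes fell. Over the 19 also tested in total RNA the median there was 1.61 and 8 rose, where 2.16% of all genes rose. All 19 were lower in Z22 than in total RNA relative to the shifts. Egr1 went from 1901 counts (218 CPM) to 683 counts (46.6 CPM) in Z22, a relative change of −3.02 (−3.16 to −2.91), and from 7.52 to 83.7 CPM in total RNA. Fos went from 144 to 33 counts in Z22 (−3.44) and Nr4a1, an orphan nuclear receptor, from 428 to 112 (−3.42). In the J2 pair 1 of the 19, Klf4, fell, where 2.71% of all genes did, and Egr1 stood at −0.19. Egr1 was at 13.6 CPM in IgG, below both Z22 libraries.

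Targets of ATF4, the transcription factor of amino acid and endoplasmic reticulum stress, gave 7 falls and no rise among 17 tested, with a median of −1.69, where 3.8% of all genes fell. Besides Ddit3 and Nupr1 these included Trib3, a pseudokinase (572 to 191 counts, −3.10), Chac1, which degrades glutathione (444 to 241 counts, −2.41), and Vldlr, a lipoprotein receptor (1353 to 738 counts, −2.42). In total RNA the median of the 17 was −0.32, 1 rose and none fell. Targets of NRF2, the factor of the antioxidant response, gave 3 rises and no fall among 16, where 2.41% of all genes rose, with 12 above the shift and a median of 0.84 (−0.26 to 1.95). In total RNA their median was 1.39, with 14 of 16 above the shift and 3 risen, where 2.16% of all genes rose. Prdx1, a peroxiredoxin, went from 243 counts (27.8 CPM) to 5666 counts (386 CPM), a relative change of 2.96. Nqo1, a quinone reductase, went from 22 to 366 counts (2.26) and Gsr, glutathione reductase, from 118 to 1468 (2.03). IgG held 766 CPM of Prdx1 and 48.3 CPM of Nqo1, above both Z22 libraries. Hmox1, the NRF2 target that degrades haem, stood at 0.21 in Z22 and at 4.58 in total RNA, where it went from 52.8 to 1195 CPM.

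Collagen and matrix genes were among the most lowered lists, with 7 falls and no rise among 20 and a median of −1.86, where 3.8% of all genes fell. Col1a2, the partner chain of Col1a1 (chr6:4504814-4541544), had 9189 counts with DMSO (1053 CPM) and 1670 with ADAR1i-124 (114 CPM), a relative change of −4.01 (−4.10 to −3.94). The basement membrane chains Col4a1 and Col4a2 went from 192 to 60.2 CPM (−2.47) and from 137 to 37.0 CPM (−2.68), and Col6a3, a chain of the pericellular type VI collagen, from 399.7 to 116 CPM (−2.60). In the J2 pair 11 of the 20 fell, with a median of −2.07, where 2.71% of all genes fell. Total RNA went the other way for several of them: 5 rose and 1 fell, where 2.16% and 1.86% of all genes did, and the median was 0.76, with Col4a2 going from 2.70 to 106 CPM (5.14) and Col1a2 from 60.2 to 329 CPM (2.53). Summed over the list, the level was 9846 CPM in Z22 with DMSO, 5136 in Z22 with ADAR1i-124 and 3642 in IgG.

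**Figure D4:**
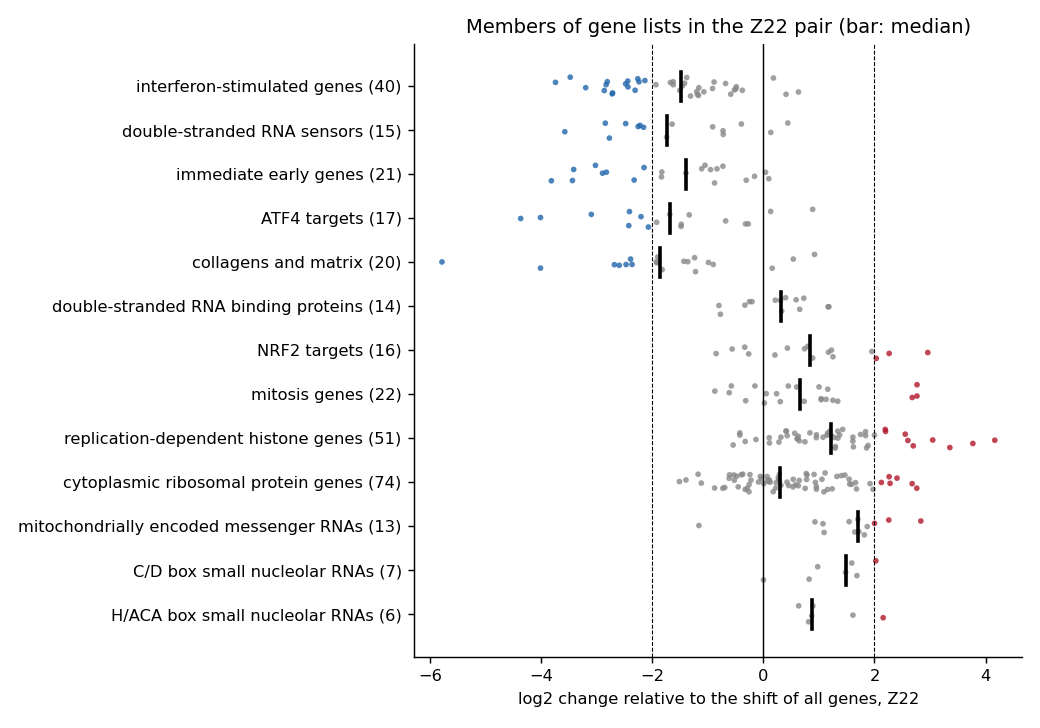
Relative log2 change in the Z22 pair (x axis) of the tested members of 13 gene lists (rows, number of members in brackets). Each point is 1 gene, red where it rose and blue where it fell, and black bars are medians, from −1.86 for collagens and matrix to 1.70 for mitochondrially encoded messenger RNAs.

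Most replication-dependent histone genes, which are made in S phase, and most mitosis genes lay above the shift. Of 51 histone genes tested, 9 rose, none fell, 46 were above the shift and the median was 1.22, or 0.77 with a pseudocount of 2 CPM. Of all genes 2.41% rose and 3.8% fell. In total RNA 16 of 50 rose, against 2.16% of all genes, 1 fell, 40 were above the shift and the median was 1.09. In J2 3 of 51 rose, against 0.821% of all genes, 49 were above the shift and the median was 0.99. Hist1h1a, a linker histone gene, went from 10 to 343 counts (3.05), and Hist1h2bh, a core histone gene, from 15 to 363 (2.70). The summed level of the histone list was 219 CPM with DMSO, 1226 with ADAR1i-124 and 1381 in IgG, and 382 and 429 in Z22 with 5-AZA-CdR and with the combination. Members of histone clusters resemble each other, so reads may be split between them. Of 22 mitosis genes 3 rose, none fell and 17 were above the shift, with a median of 0.67, where 2.41% of all genes rose. The 3 were Ccna2, cyclin A2 (106 to 2205 counts, 2.77), Bub1, a checkpoint kinase (51 to 1102 counts, 2.77), and Cdk1, the mitotic kinase (138 to 2681 counts, 2.68). In the J2 pair 18 of the 22 rose, against 0.821% of all genes, with a median of 2.21, while total RNA had a median of −0.39 with none risen or fallen.

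Messenger RNAs encoded by mitochondrial DNA were scarce in the DMSO precipitate. They made up 0.186% of its counts, 0.942% with ADAR1i-124 and 0.889% in IgG, and 1.70% and 2.10% of total RNA with DMSO and ADAR1i-124. Of 13 such genes 3 rose, against 2.41% of all genes, none fell, 12 were above the shift and the median was 1.70, or 0.84 when each was set against genes of like GC content. The risen genes were mt-Nd1 and mt-Nd3, subunits of complex I (1948 to 27509 counts, 2.26, and 23 to 568 counts, 2.83), and mt-Co3 of complex IV (61 to 764 counts, just past the line). Genes of cytoplasmic ribosomal proteins were spread on both sides, with 6 risen, none fallen and a median of 0.30 among 74, where 2.41% of all genes rose and 3.8% fell. Rps27a, which encodes ubiquitin fused to a ribosomal protein, went from 42.7 to 485 CPM (2.68), and Rpl15 from 47.3 to 444 CPM (2.41). Of 19 cytoskeleton and housekeeping genes 1 rose, 1 fell, 12 were above the shift and the median was 0.24. Actb, cytoplasmic actin, was at 0.00 relative to the shift, Gapdh, a glycolysis enzyme outside this list, at 1.59, Ppia, cyclophilin A, rose (670 to 10741 counts, 2.44), and Myh9, nonmuscle myosin, fell (74622 to 54543 counts, −2.01).

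Small noncoding RNAs of the nucleus had medians above the shift in the Z22 pair. Of 33 small nucleolar RNAs (snoRNAs) tested, which guide chemical changes of ribosomal RNA, 6 rose, none fell and the median was 0.98. Of 15 small nuclear RNA (snRNA) genes 4 rose, with a median of 1.06, and of 8 small Cajal body RNAs 2 rose. Of all genes 2.41% rose. Members on the other side included the Cajal body RNA Scarna9, at −1.64. The medians of the snoRNAs, snRNAs and Cajal body RNAs were 0.32, −0.71 and −0.32 in J2 and −0.22, −1.06 and −1.22 in total RNA. The snoRNAs Gm24616, Gm24727 and Gm25291 had the largest rises of their class and are shown as the GENCODE transcripts on GRCm38, with the ACA trinucleotide near the 3′ end in capitals, the mark of the H/ACA class that guides pseudouridylation. Gm24616 lies at chr16:23111617-23111755 on the forward strand, Gm24727 at chr8:33691801-33691944 on the forward strand and Gm25291 at chr11:51737779-51737922 on the reverse strand.
Gm24616: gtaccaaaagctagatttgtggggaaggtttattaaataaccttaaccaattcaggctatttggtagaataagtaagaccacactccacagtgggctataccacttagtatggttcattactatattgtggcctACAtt
Gm24727: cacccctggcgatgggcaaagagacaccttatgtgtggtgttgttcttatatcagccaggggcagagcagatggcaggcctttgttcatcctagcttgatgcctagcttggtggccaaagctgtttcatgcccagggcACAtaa
Gm25291: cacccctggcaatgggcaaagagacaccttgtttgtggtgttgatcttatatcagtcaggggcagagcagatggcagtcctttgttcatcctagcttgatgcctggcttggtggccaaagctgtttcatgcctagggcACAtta

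An ACA ending 2 to 4 bases before the 3′ end on the transcript's strand was found in 43.5% of 1507 annotated snoRNA transcripts. It was found in 2.02% of 1383 snRNA and 9.13% of 2202 microRNA transcripts. Gm24727 and Gm25291 are near copies that differ at 9 of 144 bases, so reads may be split between them. Gm24616 had 4 counts with DMSO and 487 with ADAR1i-124 (33.2 CPM), a relative change of 4.33, and was at 39.6 CPM in IgG. Gm24727 had 3 and 368 counts (25.1 CPM, 4.11), and Gm25291 had 13 and 404 counts (27.6 CPM, 3.01). The 3 snoRNAs were at 27.3 to 39.6 CPM in IgG and at 28.2 to 52.0 CPM in J2 with DMSO, so Z22 with DMSO was the low library for each. Named after their values were seen, the U1 genes Rnu1b1 and Rnu1b2 had 1 count each with DMSO and 59 and 284 with ADAR1i-124, and the abundant snRNA gene Gm22513 had 730 counts (83.6 CPM) and 12859 (877 CPM), a relative change of 2.57. Gm25360 was the fourth snRNA gene that rose (19 to 273 counts, 2.03). Snora23 and Snord118 went from 7 to 142 and from 5 to 105 counts (2.16 and 2.03), Gm25776 from 1 to 65 (2.19), and the Cajal body RNAs Scarna13 and Gm25395 from 40 to 893 (2.78) and from 6 to 129 (2.16). Rn7sk, the RNA that holds the elongation factor P-TEFb inactive, had 5500 counts (630.2 CPM) and 50737 (3460.1 CPM), at 1.65 relative to the shift, and 4777 CPM in IgG.

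Ribosomal-RNA-like loci went the other way. Gm42418 (chr17:39846958-39848788), annotated as a long noncoding RNA, had 3043106 counts with DMSO (348678 CPM) and 2141048 with ADAR1i-124 (146013 CPM), and fell relative to the shift by 2.07. Gm26917, its neighbour (chr17:39843013-39846341), went from 16782 to 7554 CPM (−1.96) and was at 1478 CPM in IgG. AY036118, antisense to Gm42418 over all of its length, had 0 counts in both libraries, which allows up to 0.344 and 0.205 CPM. Gm26917 also went from 1776 to 24505 CPM in total RNA. Of 18 loci annotated as microRNA genes 7 fell, against 3.8% of all genes, and none rose, with a median of −1.40. The genes Gm23935, Gm24270 and Gm24245 are annotated with an identical transcript of 57 bases on chromosomes 16, 9 and 4, so their reads cannot be told apart. The copy of Gm23935 lies at chr16:11144125-11144181 on the forward strand and is shown with nothing marked, because it names what was counted.
Gm23935: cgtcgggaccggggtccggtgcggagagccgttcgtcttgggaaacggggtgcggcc

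Together these 3 loci held 0.961% of the counts of Z22 with DMSO, 0.402% with ADAR1i-124 and 0.124% in IgG. They had 55281, 28222 and 404 counts with DMSO and 42042, 16705 and 153 with ADAR1i-124, at −1.95, −2.32 and −2.91 relative to the shift. Mir6236 went from 49855 to 28570 counts (−2.36) and Lars2, mitochondrial leucyl-tRNA synthetase, from 221268 to 104598 (−2.64). In J2, Gm42418 was at −0.23, Gm26917 at −0.13, Mir6236 at −0.48 and Lars2 at −1.04. Of the identical loci, Gm24245 fell in J2 as well (−2.22), Gm23935 and Gm24270 were at −0.87 and −0.84, and together they went from 0.463% to 0.255% of the J2 counts.

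Genes with double-stranded RNA edited by ADAR1 were followed by name and as a group. Wdr76, a nuclear WD-repeat protein, had 30 counts with DMSO (3.44 CPM) and 306 with ADAR1i-124 (20.9 CPM), at 1.63 relative to the shift (1.25 to 2.38), beside 28.9 CPM in IgG. Gnl3l, a nucleolar GTPase, had 339 and 1435 counts (0.51), and Iws1, a partner of the elongating polymerase, 932 and 1437 counts (−0.93). None of these passed the line. Among 229 tested genes with an exon on 1 of 373 hyper-edited regions that the study lists, 8 rose (3.49%) and 2 fell (0.873%), against 2.41% and 3.8% of all genes, and the median was 0.43. These genes had a median GC content of 45.4%, against 49.1% for all genes tested, and GC content moved with the result, as given next. Against the median of genes of like GC content, in 10 bins of equal size, the median of the 229 was 0.22. In the lowest quartile of GC content lay 103 of them, with a median of 1.07 against 0.66 for the others there. In the middle quartiles the medians were 0.35 against 0.18 (58 of them) and 0.09 against −0.16 (49). In the highest quartile, which held 19, they were −0.57 and −0.58. Relative to the shift over IgG, the median of the 229 was −0.54 in Z22 with DMSO and −0.12 with ADAR1i-124. Their median change was 0.24 in J2 and −0.04 in total RNA.

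GC content of the longest transcript ran along the change in Z22. Across 12786 genes, which are not independent replicates, Spearman's rho was −0.43 in the Z22 pair, and over the genes also tested elsewhere it was −0.12 in J2 and 0.27 in total RNA. From the lowest to the highest quartile of GC content, with medians of 41.5%, 46.7%, 51.4% and 56.8%, the median relative change in Z22 was 0.67, 0.19, −0.15 and −0.58. In that order 183, 72, 35 and 18 genes rose and 39, 73, 136 and 238 fell. Relative to the shift over IgG, the quartile medians of Z22 with DMSO were −0.79, −0.21, 0.25 and 0.93. Those of Z22 with ADAR1i-124 were −0.15, −0.03, 0.06 and 0.34. The genes that rose had a median GC content of 43.1% and those that fell 53.8%. Lists with extreme changes were not all at the matching end: the replication-dependent histone genes had a median GC content of 56.2% and a median change of 1.22, and 1.52 against the median of their bin. Against those bins the ISGs stood at −1.77, the immediate early genes at −1.06, the collagens at −1.39 and the mitochondrial messenger RNAs at 0.84, down from 1.70. The part of GC content in these results was not tested.

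**Figure D5:**
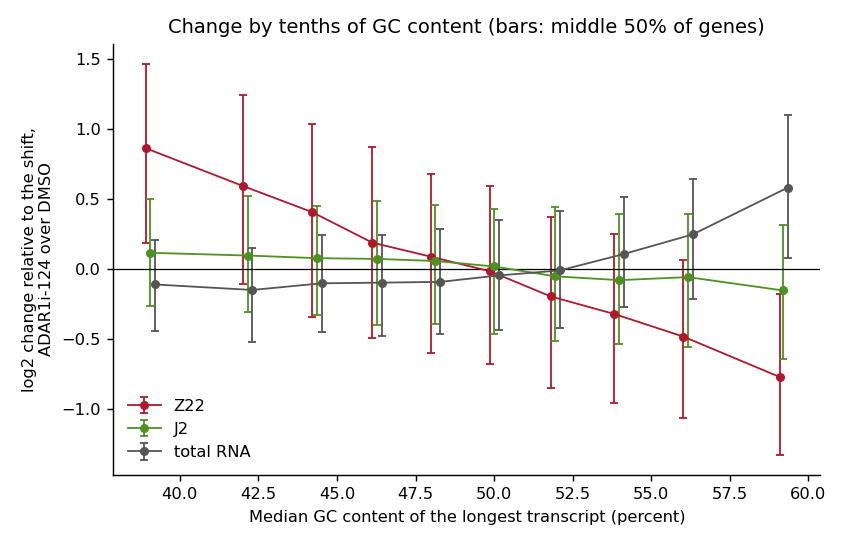
Median log2 change relative to the shift, ADAR1i-124 over DMSO (y axis), in 10 bins of the tested genes by GC content of the longest transcript (x axis, percent), for Z22 (red), J2 (green) and total RNA (grey). Bars hold the middle 50% of genes. The Z22 medians go from 0.86 in the lowest bin to −0.78 in the highest, those of total RNA from −0.11 to 0.58.

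Other sequence features ran less with the change, and some differed once GC content was held. The number of exons gave a rho of −0.12, transcript length 0.00 and the length of the gene 0.02. The longest run of alternating purine and pyrimidine in the transcript, the pattern that favours the Z form, gave 0.07. Within quartiles of GC content, genes with such a run of 20 bases or more had the lower changes, with medians from the lowest to the highest quartile of 0.63, 0.12, −0.27 and −0.74, against 0.70, 0.21, −0.12 and −0.57 for the others. Relative to the shift over IgG they were the higher ones in each quartile. With ADAR1i-124 these medians were −0.07, 0.10, 0.32 and 0.59, against −0.17, −0.08, 0.01 and 0.30 for the others. With DMSO they were −0.60, 0.05, 0.57 and 1.41, against −0.84, −0.28, 0.18 and 0.88. Genes with the letters GCGCGC in the longest transcript, on the transcript's strand, were 3492 of 12786, and 2.41% of them rose and 3.69% fell, against 2.41% and 3.8% of all genes, with a median of −0.06. Within the same quartiles their medians were 0.84, 0.34, −0.08 and −0.58, against 0.63, 0.14, −0.17 and −0.58 for genes without these letters. In the lowest quartile 7.91% of them rose and 0.377% fell, against 5.29% and 1.39% of the others. Genes with a CA or GT repeat of at least 12 bases were 1825, of which 1.59% rose and 3.12% fell, against 2.41% and 3.8% of all genes. Their median was 0.05, or −0.12 against genes of like GC content. Of 3757 genes whose exons overlap an exon on the other strand 1.73% rose and 3.43% fell, with a median of −0.04, again against 2.41% and 3.8%.

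The J2 pair shares no library with the Z22 pair, and its changes ran partly with it: rho was 0.47 across 12534 genes tested in both. Of all these 12534 genes, 6376 (50.9%) were above the shift in J2 and 6158 below it, and 111 rose and 314 fell there. Of the 309 genes that rose in Z22, 269 were above the shift in J2 and 33 rose there, which is 10.7% of the Z22 rises and 29.7% of the 111 J2 rises. Of the 426 Z22 falls tested in J2, 389 were below the shift and 141 fell, 33.1% of the former and 44.9% of the 314 J2 falls. Ccne2, Tfrc and Hist1h1b rose in both, at 3.22, 2.19 and 2.44 in J2. The snoRNAs Gm24616 and Gm24727 stayed near the shift in J2, at 0.56 and 0.12. Isg15, Oasl2, Stat2, Zbp1, Ddit3 and Col1a2 fell in both. Against total RNA the rho was −0.07 across 12453 genes: 134 of 307 genes that rose in Z22 were above the shift in total RNA and 230 of 416 that fell were below it. Above that shift lay 49.7% of all 12453 genes, 43.6% of those that rose in Z22 and 44.7% of those that fell.

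The remaining lists had the following counts, where 2.41% of all genes rose and 3.8% fell. Heat shock genes had a median of −0.23 with 1 fall among 12, p53 targets 0.00 with 2 falls among 15, and output genes of the MAPK pathway −0.26 with 1 fall among 14. Cholesterol synthesis and glycolysis genes had medians of 0.25 and 0.37 among 20 and 15, with no call. Of 270 genes named Zfp, most of which encode zinc finger repressors, 9 rose and 4 fell, with a median of 0.18. Against genes of like GC content the medians of the Zfp and MAPK lists changed sign, to −0.03 and 0.07. That of the nuclear long noncoding RNAs did too, from 0.35 to −0.12. Snhg3, a host gene of snoRNAs, went from 12 to 239 counts (2.35) and was the only call among 13 such hosts, whose median was 0.35. Among 8 nuclear long noncoding RNAs none passed the line: Malat1 stood at −1.43 from 89879 and 98468 counts, and Tug1 at 1.48.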

How the data were processed

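Purified RNA of YUMM1.7 cells was sequenced as ribosome-depleted libraries, 1 per condition. The authors mapped the reads with STAR in snakePipes to GRCm38 (mm10 per the labels) and deposited raw read counts per gene, without normalization. The counting tool and strand setting are not given in the sources used here. Identifiers were matched to GENCODE M21 (54495 of 54532 genes). Here counts were divided by the library total, 0.5 CPM was added before log2, and genes averaging 1 CPM or more were compared. Each gene was read against the median of all genes, with a 4-fold line. No test across genes was possible with 1 library per condition, and replicate error is unknown. The calculation was tested on simulated counts. Total counts of both libraries and the limits that a count of 0 allows stand in the results.

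The comparison, the gene lists and the 4-fold line were chosen with earlier results of these data known. Named genes were the 10 largest rises and 10 largest falls among genes of at least 10 CPM, the same among protein-coding genes, up to 5 members of each list by size of change, and Adar, Zbp1, Wdr76, Iws1, Gnl3l, Gm42418, Gm26917 and AY036118. Others, among them Gapdh, Lars2, Mir6236 and the snRNA genes, were named after their values were seen. Positions of hyper-edited regions came from the study's supplementary list, without its values. Alternatives covered TMM factors of edgeR 4.0.16, size factors of DESeq2 1.42.0, totals without the 20 genes of highest mean share, pseudocounts of 0.1 and 2 CPM, other filters, protein-coding genes only and a 2-fold line. Python 3.11.15 with numpy 2.4.6, pandas 2.3.3, scipy 1.17.1 and matplotlib 3.10.9 and R 4.3.3 were used. In the plan, called genes were also to be counted against IgG, which is not reported because those pairs share a library with the Z22 pair.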

Additional observations from a re-analysis of the deposited data

How the results depend on the processing

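No paired analysis was possible because each condition has 1 library, and for the same reason no library could be left out. The median log2 change of all genes was 0.81 and became 0.33 without the 20 genes of highest share, 0.14 with TMM factors, 0.10 with DESeq2 size factors, 0.86 and 0.66 with pseudocounts of 0.1 and 2 CPM, 0.84 at a mean of at least 5 CPM and 0.35 with no filter beyond 1 count. It was above 0 in each. Against 309 rises there were 467 without the 20 genes, 538 and 180 with the pseudocounts of 0.1 and 2 CPM, 892 without the filter, 2250 at the 2-fold line and, in an alternative added after seeing the data, 178 against the median of each of 10 bins of GC content. Against 487 falls there were 249 with the pseudocount of 2 CPM, 236 without the filter and 2239 at the 2-fold line. With TMM factors there were 351 rises and 466 falls, and with DESeq2 size factors 347 and 467. Of 24 gene lists with at least 6 members, all had medians of the main sign without the 20 genes and 23 did with TMM and DESeq2 factors, the exception being the p53 targets at −0.02 and −0.03. With the GC bins 21 of 24 kept the sign, and without the filter 21 did, the heat shock and MAPK medians going to 0.23 and 0.20 and that of the ZBP1 and necroptosis list to 0.05. Of 117 named genes past the 4-fold line, all stayed past it without the 20 genes, 115 with TMM and with DESeq2 factors, 95 with the pseudocount of 2 CPM, 92 without the filter and 87 with the GC bins, and none reversed under these alternatives. Without the filter the medians of the ISGs, the mitosis genes, the NRF2 targets and the hyper-edited genes became −0.98, 1.13, 1.31 and 0.87, and the Zfp median was −0.07 at a mean of at least 5 CPM. Depth limits many genes that rose: 8 of the 309 had 0 counts with DMSO, and 2 of the 487 that fell had 0 with ADAR1i-124. The spread between separate precipitations is not known from these data.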
